A study of Mus musculus with 12 samples.

Results

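The genes described here are the nuclear protein-coding genes that tumor-infiltrating myeloid cells expressed, and the measurement is how the level of each mRNA recovered with YTHDF2, relative to its level in the Input, changed after ionizing radiation (IR). Members had to be annotated as protein coding, to lie outside the mitochondrial genome, to carry a symbol that does not begin with Hist, and to average at least 5 CPM (counts scaled to equal library totals) over the 6 Input libraries. That rule kept 9787 of the 21905 nuclear protein-coding genes, and the count tables list 54446 gene identifiers in all. All 9787 also passed the filter on low counts, which 20720 genes of every type passed. The rule used no IP library and no comparison of IR with control. At its edge, Slc10a3 averaged 5.004 CPM and was kept, with a ratio change of -0.17 on the log2 scale, whereas Wrb averaged 4.99 CPM and was left out, with a change of 0.52.

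The libraries came from RNA immunoprecipitation followed by sequencing (RIP-seq) of CD11b+ myeloid cells, which were sorted out of tumors grown from MC38, a colon carcinoma line of the mouse, in syngeneic hosts. All mice were WT, which in this study denotes Ythdf2 fl/fl animals without Cre on the C57BL/6J background. The control group (Ctrl) was unirradiated, and the IR group was collected 3 days after a single dose of 20 Gy given to the tumor. Each condition had 3 replicates of 5 pooled mice, called pools below. The study's methods name these replicates technical, and whether each came from other mice than the rest of its group is not stated, so the p-values measure only the spread between these samples, which may be technical. Each pool gave an Input library and an IP library, the latter from RNA recovered with an antibody against YTHDF2. The sources differ on the material: the methods describe an IP from cell lysate, of which a portion was kept as Input, whereas the labels place the RIP after RNA extraction and mRNA isolation and give polyA RNA as the molecule. Which order holds was not settled here, and it bears on what a ratio of IP to Input stands for. The 4 groups therefore held 3 libraries each, and because each pool mixes 5 mice, differences between single animals were not measured. No IP from cells lacking YTHDF2 was analysed here, so RNA that is recovered without YTHDF2 is not subtracted from any ratio.

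YTHDF2 is a cytoplasmic reader of N6-methyladenosine (m6A), the most common internal modification of mRNA. It recruits deadenylases and other decay factors to the mRNAs it holds and so shortens their lifetime, and in myeloid cells it has been tied to inflammatory and interferon responses. A RIP-seq ratio compares the IP level of an mRNA with its level in the Input, so it can rise because more of that mRNA is recovered with YTHDF2, because the mRNA becomes less abundant in the Input, or through both together. In the text below CPM is on the TMM scale, in which each library total is multiplied by a normalization factor. Floors of CPM that choose members, and results under another named scaling, are the exceptions. The ratio is CPM in the IP over CPM in the Input, and the ratio change is that ratio in IR over that in Ctrl. Its 2 parts are the IP change and the Input change. On the log2 scale the ratio change is the IP change minus the Input change.

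Libraries held between 27852948 and 42382532 counts on genes. Reads on no annotated gene took 42.3% ± 0.46 (SD, n = 3) of the uniquely aligned reads in the Ctrl IP and 51.4% ± 2.43 in the IR IP, against 27.0% and 24.7% in the Inputs. The 9 genes taken as markers of the myeloid sort summed to between 4800 and 4909 CPM in the Ctrl Inputs and between 5925 and 5948 in the IR Inputs. They include Ptprc, which leukocytes of other types also express. The 3 tested T cell genes summed to at most 1.36 CPM, and 4 tested tumor epithelial genes to between 119 and 127 CPM in Ctrl and between 90.9 and 96.9 in IR. The tested genes of B cells, NK cells, fibroblasts, endothelium and red cells summed to at most 26.8 CPM for each type, and 1 epithelial and 1 endothelial marker had no Input count. The 6 neutrophil genes, which include S100a8 and S100a9, summed to between 5756 and 6486 CPM in Ctrl and between 8109 and 8852 in IR, and the part of this difference in the results below was not tested.

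Irradiation was followed by more falls than rises of the ratio among all calls, though not among changes of at least 2-fold. Of the 9787 members, 870 (8.89%) had a higher ratio in IR and 2525 (25.8%) a lower ratio at an adjusted p under 0.05 (edgeR quasi-likelihood test of the interaction, Benjamini-Hochberg adjustment over all tested genes). Over all 20720 tested genes, 6.28% were called higher and 13.9% lower, so the share of falls among members was above this background and the share of rises was closer to it. The ratio change ran from -0.74 to 0.68 (5th to 95th percentile) in members and from -1.49 to 2.79 over all tested genes. The part of this wider spread in the shares of calls was not tested. The median ratio change of the members was -0.16 on the log2 scale, with quartiles of -0.42 and 0.14, against -0.08 over all tested genes. Changes of at least 2-fold had the opposite balance, with 171 higher and 116 lower. The direction of the balance among all calls also depended on how the libraries were put on one scale. Higher calls made up 25.6% of the calls with TMM, 33.5% with DESeq2 size factors, 42.9% with TMM from the members alone and 76.0% (2290 higher, 724 lower) when libraries were divided by their totals only, a scaling that moved the median of all genes by 0.31. Changes relative to the median of the members are nearly the same under each of these scalings, and the calls of each list below are also given for division by totals only.

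In the IP, 1203 members (12.3%) were higher in IR and 2576 (26.3%) lower, beside 10.3% and 14.2% of all tested genes. In the Input, 2070 members (21.2%) were higher and 1170 (12%) lower, beside 12.6% and 7.24%. These are bulk samples, in which fewer cells of a type and less RNA per cell cannot be told apart.

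The following 120-base stretches are the most purine-rich of each coding sequence, read 5′ to 3′ on the coding strand from the GENCODE M21 transcripts, and they are shown because lower calls were frequent among members whose stretch reached 80% purines, as described further below. Over all calls the share did not part rises from falls in that direction: its median was 68.3% in rises, 65.8% in falls and 65.8% in all members. Capitals mark the purines A and G, and small letters mark c and t. The first 3 belong to genes whose ratio fell, and the last 3 belong to genes whose ratio rose.
Luc7l3: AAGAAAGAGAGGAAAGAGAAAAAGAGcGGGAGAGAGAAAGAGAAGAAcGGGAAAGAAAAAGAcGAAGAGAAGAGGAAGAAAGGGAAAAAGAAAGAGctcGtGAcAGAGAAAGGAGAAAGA
Rbm25: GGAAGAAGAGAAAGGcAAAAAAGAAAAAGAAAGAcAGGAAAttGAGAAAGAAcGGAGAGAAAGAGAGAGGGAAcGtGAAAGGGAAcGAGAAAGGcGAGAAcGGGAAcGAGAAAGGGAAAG
Ankrd11: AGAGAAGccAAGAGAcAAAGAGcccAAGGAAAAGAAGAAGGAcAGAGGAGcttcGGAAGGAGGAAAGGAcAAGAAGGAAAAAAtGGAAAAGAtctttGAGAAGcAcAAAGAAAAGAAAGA
Kmt2d: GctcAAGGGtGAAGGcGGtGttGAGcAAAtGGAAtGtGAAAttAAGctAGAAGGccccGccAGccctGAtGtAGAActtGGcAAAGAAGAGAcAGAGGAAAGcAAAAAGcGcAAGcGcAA
Abca13: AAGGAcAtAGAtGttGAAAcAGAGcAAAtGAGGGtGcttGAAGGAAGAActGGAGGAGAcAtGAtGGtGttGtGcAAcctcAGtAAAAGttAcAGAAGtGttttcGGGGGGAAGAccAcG
Dst: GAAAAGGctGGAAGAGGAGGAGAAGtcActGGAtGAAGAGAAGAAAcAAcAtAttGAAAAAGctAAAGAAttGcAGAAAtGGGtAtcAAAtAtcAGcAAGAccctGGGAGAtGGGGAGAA
In Luc7l3 the stretch lies in 1 exon at chr11:94296987-94297106 (mm10, minus strand), and 112 of its 120 bases (93.3%) are purines. In Rbm25 it lies at chr12:83663984-83664103 on the plus strand with 109 purines, and in Ankrd11 at chr8:122893438-122893557 on the minus strand with 100. The richest stretch of Kmt2d spans 2 exons between 98856284 and 98856620 of chromosome 15 on the minus strand and holds 82 purines (68.3%), and that of Abca13, at chr11:9585388-9585507 on the plus strand, holds 81. That of Dst, a linker of the cytoskeleton, spans 2 exons between 34174774 and 34184113 of chromosome 1 on the plus strand and holds 90 purines.

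Kmt2d, which encodes a histone H3 lysine 4 methyltransferase (ENSMUSG00000048154.17, chr15:98831669-98871204 on the minus strand in mm10, longest coding transcript 19823 bases), showed a rise made of both parts. Its Input level was 318, 311 and 307 CPM in the Ctrl pools and 164, 159 and 154 CPM in the IR pools, and its IP level went from 564, 580 and 597 to 793, 797 and 851 CPM. No IR library overlapped the Ctrl libraries of its fraction. The ratio change was 1.46 ± 0.06 on the log2 scale (SE; adjusted p = 8.9e-13, edgeR), which is 2.74-fold, with an IP change of 0.49 and an Input change of -0.97.

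Ankrd12 encodes an ankyrin-repeat cofactor that recruits histone deacetylases (chr17:65965698-66077089 on the minus strand in mm10, longest coding transcript 10821 bases), and it moved the other way. It was measured at 451, 439 and 434 CPM in the Ctrl Inputs and 617, 578 and 616 CPM in the IR Inputs. In the IP it fell from 2664, 2810 and 2838 CPM to 1402, 1434 and 1426 CPM, so that every IR pool lay below every Ctrl pool although the Input had risen. The ratio change was -1.42 ± 0.05 (SE; adjusted p = 9.7e-14), with an IP change of -0.96 and an Input change of 0.45.

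Luc7l3 is an arginine- and serine-rich partner of the U1 small nuclear ribonucleoprotein, the particle that recognizes 5′ splice sites (chr11:94287890-94321988 on the minus strand in mm10, longest coding transcript 5244 bases). Its IP level was 3698, 3722 and 3947 CPM in Ctrl and 1803, 1791 and 1894 CPM in IR, while its Input level went from 785, 733 and 722 to 929, 888 and 917 CPM. The groups overlapped in neither fraction, and the ratio change was -1.34 ± 0.05 (SE; adjusted p = 5e-13). Ppig, a nuclear cyclophilin with an arginine- and serine-rich tail (chr2:69722545-69754012 on the plus strand in mm10, longest coding transcript 6245 bases), followed the same course, from 1686, 1740 and 1824 to 820, 812 and 821 CPM in the IP and from 683, 635 and 652 to 794, 759 and 780 CPM in the Input. Its ratio change was -1.34 ± 0.05 (SE; adjusted p = 5e-13). In Ankrd12, Luc7l3 and Ppig the IP still exceeded the Input in every IR pool, in Ppig only slightly.

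**Figure D1:**
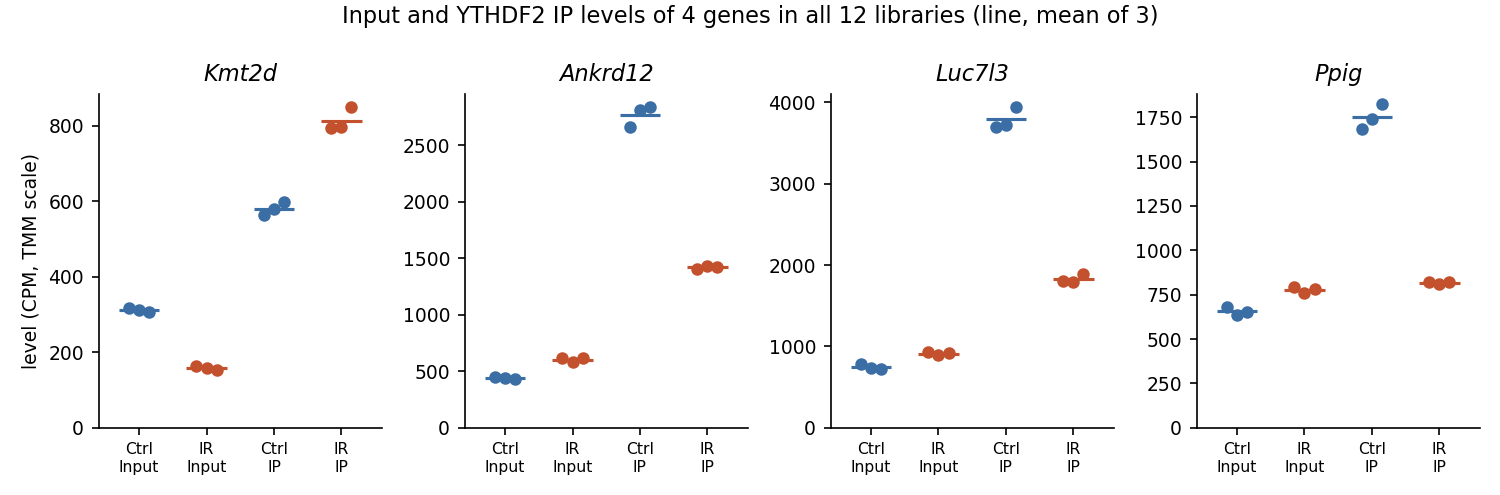
Normalized level (CPM on the TMM scale) of Kmt2d, Ankrd12, Luc7l3 and Ppig in the Input and the IP, with 1 point per pool of 5 mice and a bar at the mean of 3 pools in Ctrl and in IR. The IP of Kmt2d rises while its Input falls, whereas the IP of the other 3 genes falls while their Input rises, and in every panel the IR points lie apart from the Ctrl points.

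The transcript of YTHDF2 itself was measured at 57.8, 57.7 and 58.6 CPM in the Ctrl Inputs and 47.7, 51.4 and 55.4 CPM in the IR Inputs. Its IP level was 91.9, 92.7 and 92.0 CPM in Ctrl and 58.9, 84.8 and 67.1 CPM in IR. The IP groups did not overlap and the IP change of -0.39 passed the test (adjusted p = 0.0055), whereas neither the Input change of -0.17 (adjusted p = 0.26) nor the ratio change of -0.22 ± 0.14 (SE; adjusted p = 0.31) did. Without IR IP replicate 2, which was the highest of the 3, the ratio change was -0.36 (adjusted p = 0.016).

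Among the 12 members with the largest rises, the fall of the Input was the larger part in all but Vav3. Zfp971, a zinc finger gene with close relatives in the genome to which reads could also have been assigned, had the largest rise, 3.39 ± 0.38 (SE; adjusted p = 1.5e-06). It went from 9.47, 11.1 and 9.39 to 2.98, 3.10 and 2.55 CPM in the Input and from 1.22, 1.87 and 2.20 to 3.64, 6.22 and 6.09 CPM in the IP. The IP thus moved from under the Input in each Ctrl pool to above it in each IR pool. Abca13, a giant lipid transporter of the ABC family, rose by a ratio change of 2.19 ± 0.11 (SE; adjusted p = 3e-11), from 47.2, 49.7 and 47.0 to 15.3, 15.3 and 15.4 CPM in the Input and from 39.0, 39.9 and 41.3 to 59.6, 55.6 and 59.9 CPM in the IP. It too passed from an IP below the Input in Ctrl to an IP well above it in IR.

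Lars2, the mitochondrial leucyl-tRNA synthetase, rose through the Input alone. Its Input fell from 87.8, 114 and 108 to 21.3, 21.9 and 22.6 CPM, while its IP was 23.1, 23.9 and 22.4 CPM in Ctrl and 24.1, 24.8 and 18.4 CPM in IR. The ratio change was 2.19 ± 0.16 (SE; adjusted p = 4.6e-09) and the IP change -0.04. Slc8a1, the sodium and calcium exchanger, behaved in the same manner with a ratio change of 2.52 ± 0.26 and an IP change of 0.30 that did not pass the test, although its exons overlap genes on the opposite strand. Vav3, a guanine nucleotide exchange factor that acts downstream of immune receptors, was the exception in this set. Its IP rose from 6.12, 8.65 and 9.80 to 20.0, 16.8 and 23.9 CPM and its Input fell from 20.8, 21.3 and 22.1 to 14.2, 14.8 and 14.3 CPM, which gave a ratio change of 1.88 ± 0.23 (SE; adjusted p = 4.2e-06).

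The other 7 of the 12 were Zfp407, a zinc finger gene (2.17), Gm14548 (1.93), the adenylate cyclase Adcy9 (1.92), Gm340 (1.85), Pstpip2, an F-BAR protein that restrains autoinflammation (1.81), Alms1, a centrosome protein (1.80), and Ankrd52, a regulatory subunit of protein phosphatase 6 (1.77), all as log2 ratio changes. Exons of Zfp407, Pstpip2 and Ankrd52 overlap a gene on the other strand, and those of Ankrd52 also hold a microRNA gene. Counts expected from a background spread evenly over exons were at most 7.76% of the IR IP counts of each of these 12 genes, and their calls remained when that background was subtracted.

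The 12 largest falls comprised genes with few IP counts and some of the most abundant mRNAs in the IP. Fmc1, an assembly factor of the mitochondrial ATP synthase, had the largest fall of the ratio, -3.12 ± 0.61 (SE; adjusted p = 8.4e-04). It stood at 7.15, 6.60 and 7.89 CPM in the Ctrl Inputs and 6.82, 5.58 and 7.23 CPM in the IR Inputs, but its IP held 38, 23 and 15 counts in Ctrl and 6, 1 and 1 counts in IR, so this fitted value depends on the prior count. Ly6g, the surface marker of mouse neutrophils, fell by 1.48 ± 0.34 on the log2 scale (adjusted p = 0.0031), from 4.03, 5.72 and 4.10 to 1.23, 1.81 and 2.64 CPM in the IP, while its Input went from 11.0, 10.9 and 8.97 to 10.1, 11.999 and 13.2 CPM. Here the Input groups overlapped and the IP groups did not. Rpgr, a regulator of ciliary trafficking whose exons overlap those of Srpx on the same strand, fell by 1.46 ± 0.25 on the log2 scale, and its IP went from 20.0, 21.5 and 26.7 to 7.41, 8.58 and 10.1 CPM. The ratio change was -1.47 ± 0.37 (SE) in Cenpw, a centromere protein, -1.89 ± 0.46 in Gm9733 and -1.52 ± 0.41 in Wdr34, an intermediate chain of the ciliary dynein, the last not past the threshold when libraries were divided by their totals only.

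An even background over exons made up more of the IR IP counts in several of these falls than in the rises. It came to 16.5%, 70.3% and 59.3% of the counts of Fmc1 in the 3 IR IP libraries, and to at most 56.5% in Rbbp9, 17.3% in Cenpw, 17.0% in Mrps11, 14.8% in Gm9733 and 6.77% in each of the other 7. The calls of the 12 falls remained when it was subtracted. That subtraction could not test a fall, because it takes more counts per kb from the IR IP (1.11) than from the Ctrl IP (0.258).

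Calls of 4 further genes among the 12 largest falls were lost when 1 library was left out. They were Mrps11 (-1.79), a mitochondrial ribosomal protein whose exons overlap Mrpl46, Rbbp9 (-1.68), 2310039H08Rik (-1.63) and 2010005H15Rik (-1.56), a stefin-like gene in a family of near copies.

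Rbm25, a nuclear speckle protein that regulates alternative splicing, was among the most abundant of the falling members. Its IP dropped from 6157, 6396 and 6831 to 3034, 3037 and 3260 CPM, and its Input rose from 1305, 1174 and 1207 to 1626, 1493 and 1567 CPM. The ratio change was -1.40 ± 0.06 (SE; adjusted p = 3.1e-12). Ankrd11, the close relative of Ankrd12, changed by -1.40 ± 0.04 (SE; adjusted p = 4.1e-15), with 10073, 10014 and 10407 CPM in the Ctrl IP and 4599, 4487 and 4564 CPM in the IR IP against 1387, 1281 and 1305 and 1569, 1540 and 1575 CPM in the Inputs. In both genes all IR pools lay outside the range of the Ctrl pools in both fractions. Exons of Rbm25 and Ankrd11 overlap noncoding genes on the opposite strand.

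Called members were then split by which of the 2 fractions moved. A part counts as moved when its own contrast in the same edgeR fit passed the adjusted p threshold in the direction that changes the ratio. Of the 870 rises, 287 (33.0%) had only a higher IP, 331 (38%) only a lower Input, 192 (22.1%) both, and in 60 (6.90%) neither part passed by itself. Of the 2525 falls, 1076 (42.6%) had only a lower IP, 721 (28.6%) only a higher Input, 604 (23.9%) both, and 124 (4.91%) neither. Since the split uses the libraries of the ratio change itself, it is a description and has no test.

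Single libraries moved some of these counts. Without IR IP replicate 3, rises through the Input alone numbered 549. Without Ctrl IP replicate 1, 2 or 3, falls through the Input alone numbered 441, 437 and 444, and falls through both parts 353, 317 and 342.

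Rises through the IP alone had Fbxl2, a subunit of a ubiquitin ligase (1.61), and Wdr44, a Rab11-binding protein (1.55), near their top. The receptor Tgfbr1, which carries the signal of TGF-β, belonged to the same kind with an IP change of 0.60 and an Input change of -0.01. Fabp4 (1.73), a fatty acid carrier, also led this kind by size, but its call was lost when 1 library was left out. Falls through the Input alone included the actin regulator Cald1, with an Input change of 1.19 and an IP change of 0.02. Matn1 (-1.26) and Fahd1 (-1.07), the other leaders of that kind, lost their calls when 1 library was left out.

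**Figure D2:**
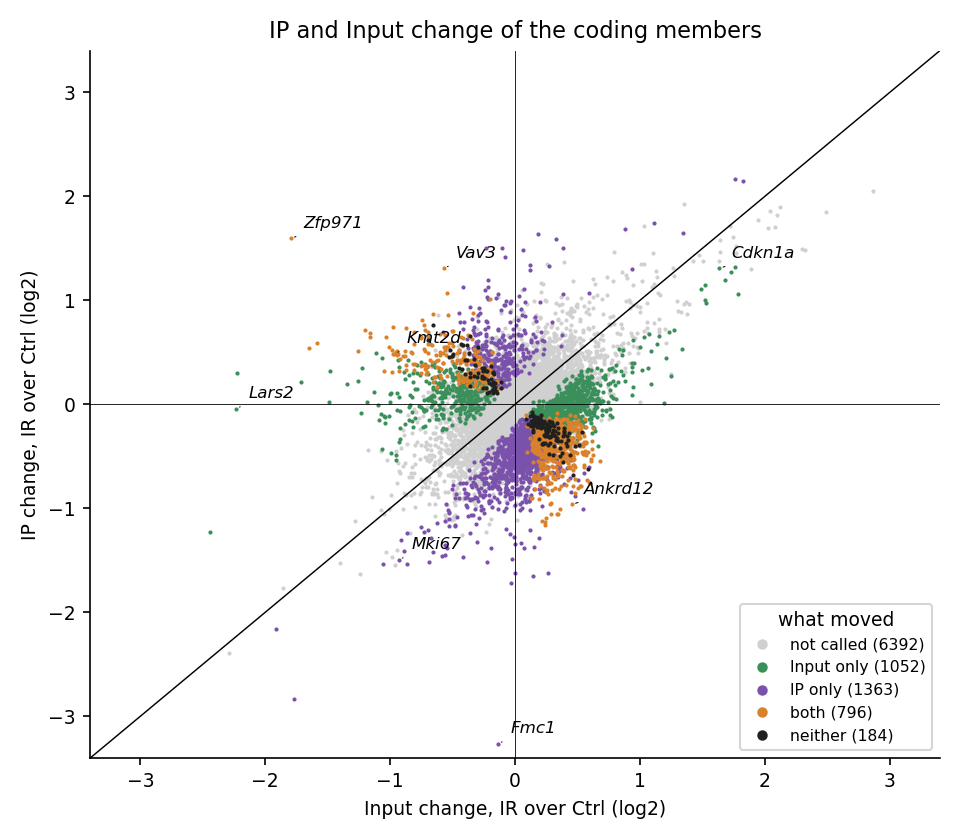
Input change against IP change (both log2, IR over Ctrl) of the 9787 members, 1 point per gene, colored by which part passed its own test among called members; the diagonal marks a ratio change of 0 and 3 members lie outside the axes. Rises lie above the diagonal and falls below it, with 1363 genes moved by the IP only, 1052 by the Input only, 796 by both and 184 by neither.

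The sign of a ratio change does not say whether an mRNA was enriched. Of the 870 rises, 323 had an IP below the Input in both conditions, 209 went from below the Input to no call, 97 from below to above, 111 from no call to above, and 128 were above the Input in both. The median ratio of the rising genes went from -0.68 in Ctrl to 0.03 in IR on the log2 scale. Of the 2525 falls, 1031 were above the Input in both conditions, 371 went from above to no call, 135 from above to below, 342 from no call to below, and 642 were below in both. Their median ratio went from 0.47 to -0.05. The choice of these genes by their ratio change partly fixes such counts, which have no test.

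Of the 10 sequence features examined, transcript length had the largest rank correlation with the ratio change. The median length of the longest coding transcript was 6157 bases among rises and 2633 among falls, against 3175 among all members. Of 471 members under 1 kb, 1 (0.212%) was called higher and 194 (41.2%) lower. Among 1896 members of 1 to 2 kb the calls were 18 higher (0.949%) and 642 lower (33.9%), and among 3986 members of 2 to 4 kb they were 151 (3.79%) and 1075 (27.0%). At 4 to 8 kb, 482 of 2893 were higher (16.7%) and 526 lower (18.2%), and at 8 kb or more, 218 of 541 were higher (40.3%) and 88 lower (16.3%).

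Medians within pools ran in the same order. For members under 1 kb the median log2 ratio was -1.47 ± 0.01 (SD, 3 pools) in Ctrl and -1.80 ± 0.04 in IR, lower by a log2 difference of -0.33. For members of 8 kb or more it rose from 0.19 to 0.52, a difference of 0.33. The classes between differed by -0.28 (1 to 2 kb), -0.14 (2 to 4 kb) and 0.08 (4 to 8 kb). The pools of the 2 conditions did not overlap in any of the 5 classes, and an exact permutation test of 3 against 3 pools cannot give a p below 0.1. The difference between the longest and the shortest class was 0.67 on the log2 scale and stayed between 0.65 and 0.68 with any 1 library left out. When libraries were divided by their totals only, the class differences were -0.02, 0.03, 0.17, 0.39 and 0.64 from the shortest to the longest, so the sign of the 1 to 2 kb and 2 to 4 kb classes changed and the order did not.

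Input changes followed length more closely than IP changes did. Median Input changes ran from 0.33 under 1 kb through 0.17, 0.07 and -0.05 to -0.19 at 8 kb or more, while median IP changes were -0.03, -0.14, -0.12, -0.03 and 0.06. The share of members with a lower Input in IR climbed from 1.06% of the shortest class to 42.5% of the longest, and the share with a higher Input went down from 46.3% to 12.2%. Over the 9787 members, Spearman's rho with length was 0.36 for the ratio change, -0.36 for the Input change and 0.13 for the IP change. These are descriptions across genes, which share the same libraries. Rises through both parts had the longest transcripts (median 7399 bases), followed by rises through the Input alone (6620) and rises through the IP alone (5168). RNA integrity was not measured in the deposited tables, and the part that RNA quality or library composition had in the relation with length was not tested.

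**Figure D3:**
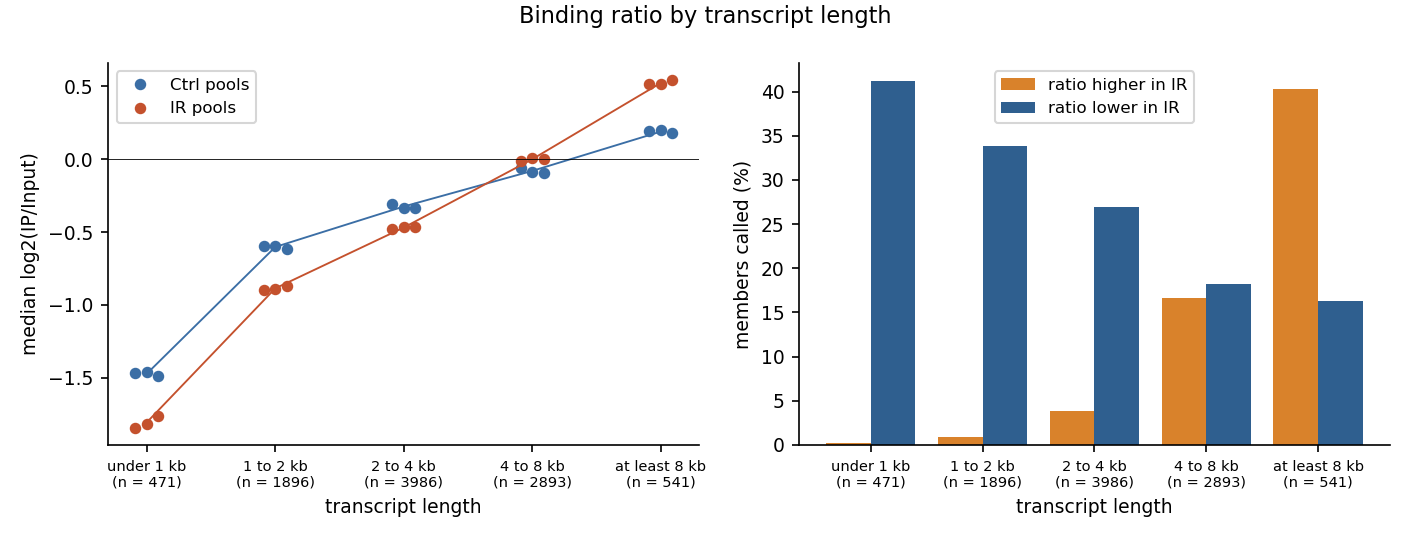
Median log2 IP over Input of the members of each transcript length class, 1 point per pool in Ctrl and IR with lines through the means, beside the percent of members called higher and lower in each class. Ctrl and IR pools part downward under 1 kb (-1.47 and -1.80) and upward at 8 kb or more (0.19 and 0.52), while lower calls go from 41.2% to 16.3% and higher calls from 0.212% to 40.3%.

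The counts of the lists that follow stand beside 8.89% higher and 25.8% lower calls and a median ratio change of -0.16 among all members. The lists were chosen with earlier results of these data known, which may partly fix their counts. They were not matched for transcript length, with which the shares of calls changed as given above. The part of length in the counts of each list was not tested. Cytoskeletal linkers and motors, several of them giant proteins with long transcripts, had mostly higher ratios among their calls. Of 22 members, 13 (59.1%) had a higher ratio and 4 (18.2%) a lower one, with a median ratio change of 0.27. Their median transcript length was 12257 bases, and of all members of 8 kb or more 40.3% were higher and 16.3% lower. Myh9, the heavy chain of nonmuscle myosin, fell in the Input from 1745, 1659 and 1677 to 1045, 1015 and 1028 CPM and rose in the IP from 1098, 1132 and 1177 to 1491, 1418 and 1506 CPM, a ratio change of 1.09 ± 0.05 (SE; adjusted p = 3.3e-12). Syne1, a nesprin that ties the nucleus to the cytoskeleton, fell from 432, 433 and 426 to 258, 249 and 257 CPM in the Input and rose from 408, 404 and 428 to 682, 620 and 629 CPM in the IP. In both genes the IP went from below or level with the Input to well above it. The linkers Dst (1.56), Syne2 (1.51) and Cep350 (1.51) changed by similar amounts, and Flna, the filamin that crosslinks actin, by 0.22.

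Giant ubiquitin ligases had 11 of 16 members (68.75%) called higher and none lower, with a median ratio change of 0.45 and a median Input change of -0.36. Their median transcript length was 12105.5 bases, a length at which 40.3% of all members (8 kb or more) were higher. Rnf213, an interferon-inducible ligase, went from 79.2, 77.3 and 81.8 to 41.1, 41.5 and 41.9 CPM in the Input and from 72.5, 69.9 and 72.4 to 105, 93.0 and 101 CPM in the IP. Ubr3 changed by 1.52, Ubr4 by 1.07, Hectd4 by 0.85 and Huwe1 by 0.53, whereas the value of Mycbp2, -0.09, did not pass the test. Of the 6 PI3K-like kinases and partners on a list that left out Atm, given below with the DNA damage genes, 3 were higher. They were Smg1 (1.01), which acts in nonsense-mediated decay, Mtor (0.98), and Rictor (0.44), a partner of Mtor whose call was lost when 1 library was left out. Higher calls in the linkers and ligases outnumbered lower calls under every scaling, 15 against 1 and 15 against 0 when libraries were divided by their totals only, and the kinases kept 3 against 0.

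Of the 99 members on the chromatin list, 21 had a higher and 38 a lower ratio, with a median of -0.09. Histone acetyltransferases had 2 of 12 higher and 3 lower, and deacetylases and corepressors 2 of 16 higher and 6 lower. Histone demethylases, which remove methyl groups from histone tails, had 7 of 16 higher and 2 lower (median 0.36), and lysine methyltransferases 6 of 23 higher and 5 lower (median -0.05). Nucleosome remodelers, which move or eject nucleosomes, had 4 of 32 higher and 22 lower (median -0.51, IP -0.38, Input 0.05). Arid4a, a subunit of a histone deacetylase complex, changed by -1.36 ± 0.06 (SE; adjusted p = 3.3e-12), and Baz1a, a subunit of the ACF remodeler, by -0.96 ± 0.05 (SE; adjusted p = 5.1e-11). The remodelers kept more lower than higher calls when libraries were divided by their totals only (17 against 7), and the demethylases kept more higher than lower calls (12 against 1). That scaling turned the balance of the acetyltransferases to 5 higher and 1 lower, of the deacetylases and corepressors to 5 higher and 3 lower, and of the whole list to 41 higher and 24 lower, and gave the methyltransferases 12 higher and 2 lower. Differences between these roles were not tested.

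Splicing factors had mostly lower ratios among their calls. Of 67 members, 3 were higher and 39 lower (median -0.36), and among 32 serine- and arginine-rich related and nuclear speckle proteins 3 were higher and 24 lower (median -0.52, IP -0.48, Input 0.14). Prpf38b, a spliceosome component, changed by -1.37 ± 0.07 (SE; adjusted p = 5.8e-11), and Son, a scaffold of nuclear speckles, by -0.78 ± 0.03 (SE; adjusted p = 1.2e-12). Classical SR proteins had 6 of 12 lower and none higher, and their kinases 5 of 6 lower and none higher. The Sm and LSm core proteins of the spliceosomal particles had 4 of 17 (23.5%) lower, a share near that of all members, and none higher. Their median transcript length was 1013 bases, and 33.9% of all members of 1 to 2 kb were lower. Divided by their totals only, the libraries still gave 19 lower and 9 higher calls over the whole list and 16 and 6 among the speckle proteins, and 2 lower and 3 higher among the SR proteins. Their kinases then had 1 lower call, and the Sm and LSm proteins had no call.

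The ratios of ribosomal protein genes were lower through their Input. Of 80 members, 65 (81.25%) were lower and none higher (median -0.39), with a median IP change of 0.14 and a median Input change of 0.52. Their median transcript length was 925.5 bases, and 41.2% of all members under 1 kb were lower. The Input was higher in 78 of the 80, and in 60 of the 65 falls the Input was the only part that moved. Rplp2, a protein of the ribosomal stalk, rose in the Input from 3276, 3236 and 3215 to 5068, 5041 and 5052 CPM, and its IP was 1490, 1630 and 1677 CPM in Ctrl and 1632, 1727 and 1767 CPM in IR. Its Input groups lay far apart and its IP groups overlapped, with a ratio change of -0.54 ± 0.05 (SE; adjusted p = 1.7e-07). Rpl38 (-0.68), Rps29 (-0.64) and Rpl35 (-0.59) were among the largest falls on this list. Ribosomal protein genes have many processed pseudogenes, which makes the counts of single members less certain, and with libraries divided by their totals only 17 were lower and 5 higher.

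Lower ratios of mitochondrial ribosomal proteins came with a lower IP. Of 77 members, 30 (39.0%) were lower and none higher (median -0.44, IP -0.28), and the IP had moved in 22 of the 30. Their median transcript length was 1339 bases, and of all members of 1 to 2 kb 33.9% were lower and 0.949% higher. Mrps7 changed by -0.89 ± 0.11 (SE; adjusted p = 4.8e-06), of which -0.79 was the IP change. In oxidative phosphorylation 23 of 77 members (29.9%) were lower, a share near that of all members, and none higher (median -0.28). The median transcript length on that list was 908 bases, and 41.2% of all members under 1 kb were lower. Cox7a2l, which assembles respiratory supercomplexes, had an Input of 211, 210 and 199 CPM in Ctrl and 303, 314 and 303 CPM in IR, and its IP went from 807, 808 and 812 to 756, 800 and 734 CPM. Its IP thus exceeded its Input in every pool, whereas the median log2 ratio of that list in Ctrl was -1.94. The share was also near that of all members among 37 proteasome genes, of which 11 (29.7%) were lower and none higher (median -0.21), with Psmd7 (-0.84) and Psmc1 (-0.74) at the front. Division by totals only changed the calls to 6 lower and 5 higher for the mitochondrial ribosome, 2 and 7 for oxidative phosphorylation, and 4 and 2 for the proteasome.

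Translation factors had 21 of 63 lower and 3 higher (median -0.15, close to that of all members), a balance that turned to 8 lower and 17 higher with libraries divided by their totals only. Eif5b, which joins the ribosomal subunits, changed by -1.24 ± 0.08 (SE; adjusted p = 9.2e-10), and Eif3a and Eif3j1, subunits of the initiation factor eIF3, by -1.03 and -0.83. Of the 20 aminoacyl-tRNA synthetases on a further list, 4 were lower and none higher, led by Eprs (-0.60). With libraries divided by their totals only, 1 was lower and 7 higher. That list left out the mitochondrial synthetase Lars2, whose ratio was higher, as given above.

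The machinery that writes, erases and reads m6A moved in both directions, with 5 of 21 members higher and 4 lower (median 0.03). Alkbh5, a demethylase that removes m6A, rose by a ratio change of 1.12 ± 0.13 (SE; adjusted p = 2.8e-06), and Rbm15, which guides the methyltransferase complex, by 1.03 ± 0.11 (SE; adjusted p = 9.8e-07) through the Input alone. Zc3h13, which anchors the same complex in the nucleus, fell by 1.24 ± 0.07 on the log2 scale (adjusted p = 8.4e-11), with IP levels of 958, 967 and 1070 CPM in Ctrl and 504, 500 and 533 CPM in IR. The helicase and reader Ythdc2 rose by 1.04, but its call was lost when 1 library was left out. With libraries divided by their totals only, 8 members of this list were higher and 2 lower.

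Among 47 genes of mRNA decay, through which YTHDF2 acts, 8 (17.0%) were higher and 12 (25.5%) lower (median -0.06). The share of lower calls was near that of all members, and the share of higher calls was above it. The median log2 ratio of the list within pools averaged -0.34 in Ctrl and -0.03 in IR. The gene at the middle of the list can differ between pools, so this shift is not the change of a typical gene, whose median was -0.06. The largest called changes, named next, were falls. The nonsense-mediated decay factor Upf2 fell from 2399, 2518 and 2684 to 1329, 1508 and 1522 CPM in the IP while its Input rose from 291, 264 and 250 to 402, 362 and 375 CPM. None of its groups overlapped, and the ratio change was -1.30 ± 0.08 (SE; adjusted p = 6.1e-10). Its partner Upf3b changed by -1.13, and the microRNA silencing scaffolds Tnrc6a and Tnrc6c by -0.92 and -0.90. Division by totals only gave 17 higher and 5 lower calls.

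Of 46 genes of NF-κB signaling, 19 (41.3%) were lower and 2 (4.35%) higher (median -0.21). Smpdl3b, a membrane phosphodiesterase that limits Toll-like receptor signaling, changed by -0.76 ± 0.13 (SE; adjusted p = 2.2e-04) through the IP, whereas Tnfaip8l2, a negative regulator of immune receptors, changed by -0.73 ± 0.09 (SE; adjusted p = 5.4e-06) and its Input by 0.49. The adaptor Traf1 (-0.63), the deubiquitinase Otulin (-0.60) and the adaptor Myd88 (-0.51) were also lower, and so was Nfkbia (-0.45), the inhibitor IκBα, though not past the threshold with libraries divided by their totals only. That scaling gave the NF-κB list 6 lower and 12 higher calls.

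Interferon-stimulated genes had 11 of 33 lower and 1 higher (median -0.32). Ifit1, a sensor of foreign RNA caps, changed by -1.21 ± 0.30 (SE; adjusted p = 0.0065), Gbp7, a guanylate-binding protein, by -0.92 ± 0.10 and Ifi35 by -0.78 ± 0.16 (SE). The 1 higher call, Ifih1 (1.01), a sensor of double-stranded RNA, was lost when 1 library was left out. Rnf213, the interferon-inducible ligase given above, was not on this list. Of 22 chemokine ligands and receptors, 9 were lower and none higher (median -0.29). Cxcl16, a membrane-bound ligand, changed by -0.40 ± 0.08 (SE; adjusted p = 0.0017) with an Input change of 0.49, a call that was lost with libraries divided by their totals only. Under division by totals only, the interferon list had 4 lower and 1 higher calls and the chemokine list 1 and 2.

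MHC genes, which present antigen, had 14 of 26 lower and none higher (median -0.22, Input 0.28). Calr, a chaperone of class I loading, changed by -0.78 ± 0.14 (SE; adjusted p = 3e-04) through the IP. The class II loading subunit H2-DMb1 changed by -0.63 and the class I gene H2-Q4, one of several near copies, by -0.58. Of 24 neutrophil genes, 11 were lower and none higher (median -0.28). S100a9, a calcium-binding alarmin, changed by -0.65 ± 0.07 (SE; adjusted p = 6.4e-07), with an Input change of 0.48. Of 28 macrophage and monocyte genes, 4 were higher and 11 lower (median -0.10). Itgam, which encodes CD11b itself, changed by -0.58 ± 0.06 (SE; adjusted p = 2.9e-07) with an Input change of 0.86, and its exons overlap a gene on the same strand. Fn1, fibronectin, rose by 1.36 and Thbs1, thrombospondin, by 0.87. The summed neutrophil level moved with irradiation in the same Inputs, as given above, and its part in these list counts was not tested. Divided by their totals only, the libraries gave 3 lower and 2 higher MHC calls, 4 and 1 neutrophil calls, and 3 and 9 macrophage calls.

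Immediate early genes had 12 of 24 lower and 1 higher (median -0.34), led by the transcription factor Klf4 (-0.86), and lysosomal genes 19 of 50 lower and 2 higher (median -0.23), led by the cathepsin Ctsz (-0.60) and the sialidase Neu1 (-0.60) among calls that held without any 1 library. Cytokine, receptor and checkpoint genes had 10 of 25 lower and 3 higher (median -0.29). Il6ra, the receptor of interleukin 6, changed by -0.77 and Sirpa, the receptor of CD47, by -0.47, against rises in the TGF-β receptors Tgfbr1 (0.61) and Tgfbr2 (0.67). On division by totals only, lower and higher calls were 5 and 2, 2 and 10, and 2 and 5 on these lists.

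Targets of p53, the transcription factor that DNA damage activates, had the largest median Input change of the 30 lists. Their median Input change was 0.94 and their median IP change 0.96, and 4 of 24 had a higher ratio and 6 a lower one (median -0.19). Cdkn1a, the p21 inhibitor of cyclin-dependent kinases, rose in the Input from 336, 346 and 343 to 1062, 1067 and 1056 CPM and in the IP from 148, 151 and 151 to 365, 367 and 379 CPM. All IR pools lay far above all Ctrl pools in both fractions, and the ratio change was -0.33 ± 0.05 (SE; adjusted p = 5.7e-05), which was -0.02 and not past the threshold with libraries divided by their totals only. Zmat3, an RNA-binding p53 target, rose by 0.63 in the ratio and Pmaip1, the apoptosis inducer Noxa, by 0.67, while Btg2, an antiproliferative partner of the deadenylase complex, changed by -0.57.

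Genes of the cell cycle had a median IP change of -0.45 and a median Input change of -0.32, and 5 of 50 had a higher ratio and 14 a lower one (median -0.08). Mki67, a proliferation marker, fell in the Input from 680, 665 and 685 to 351, 361 and 352 CPM and in the IP from 1534, 1471 and 1482 to 539, 521 and 533 CPM. Both fractions separated fully, and the ratio change was -0.56 ± 0.05 (SE; adjusted p = 3e-08). Pola1, a DNA polymerase subunit (1.07), and Anln, anillin of the cleavage furrow (0.83), had higher ratios, and Cenpe, a mitotic kinesin (-0.89), and Top2a, topoisomerase II (-0.52), lower ones. Of 43 DNA damage genes, 4 were higher and 7 lower. Atm, the kinase that senses double-strand breaks, rose by a ratio change of 1.15 ± 0.21 (SE; adjusted p = 3.9e-04) through an Input change of -1.23, and Rif1, a regulator of repair choice, fell by 0.69 ± 0.07 on the log2 scale (adjusted p = 1.9e-07). Library totals alone as the scale gave higher and lower calls of 12 and 4 for the cell cycle, 7 and 1 for p53 targets, and 12 and 2 for DNA damage.

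Zinc finger genes with Zfp symbols numbered 205, of which 18 (8.78%) were higher and 43 (20.98%) lower (median -0.23), shares close to those of all members, or 41 higher and 10 lower with libraries divided by their totals only. Zfp526 (1.58) and Zfp871 (1.21) were among the rises and the ubiquitin ligase Zfp91 (-0.91), whose exons overlap Cntf, among the falls. Mediator and elongation genes had 7 of 23 higher and 8 lower. Their rises were led by Aff4, a scaffold of the super elongation complex (1.41), Med14 (1.13) and Med13 (1.06), and their falls included Paf1 (-0.89) and Brd2 (-0.83), a reader of acetylated histones. Glycolysis and hypoxia genes had 2 of 24 higher and 3 lower, with Pgam1 at 0.86. Cholesterol and lipid genes had 1 of 27 higher, the exporter Abca1 (1.55), and 4 lower, with Lpl, lipoprotein lipase, at -0.47. Iron genes had 2 of 11 higher and 3 lower. Their transferrin receptor Tfrc rose by 0.57 although its IP change was -0.36, while the Input change was -0.93. With libraries divided by their totals only, higher and lower calls were 11 and 8 for Mediator and elongation, 11 and 0 for glycolysis, 8 and 1 for cholesterol, and 3 and 0 for iron.

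**Figure D4:**
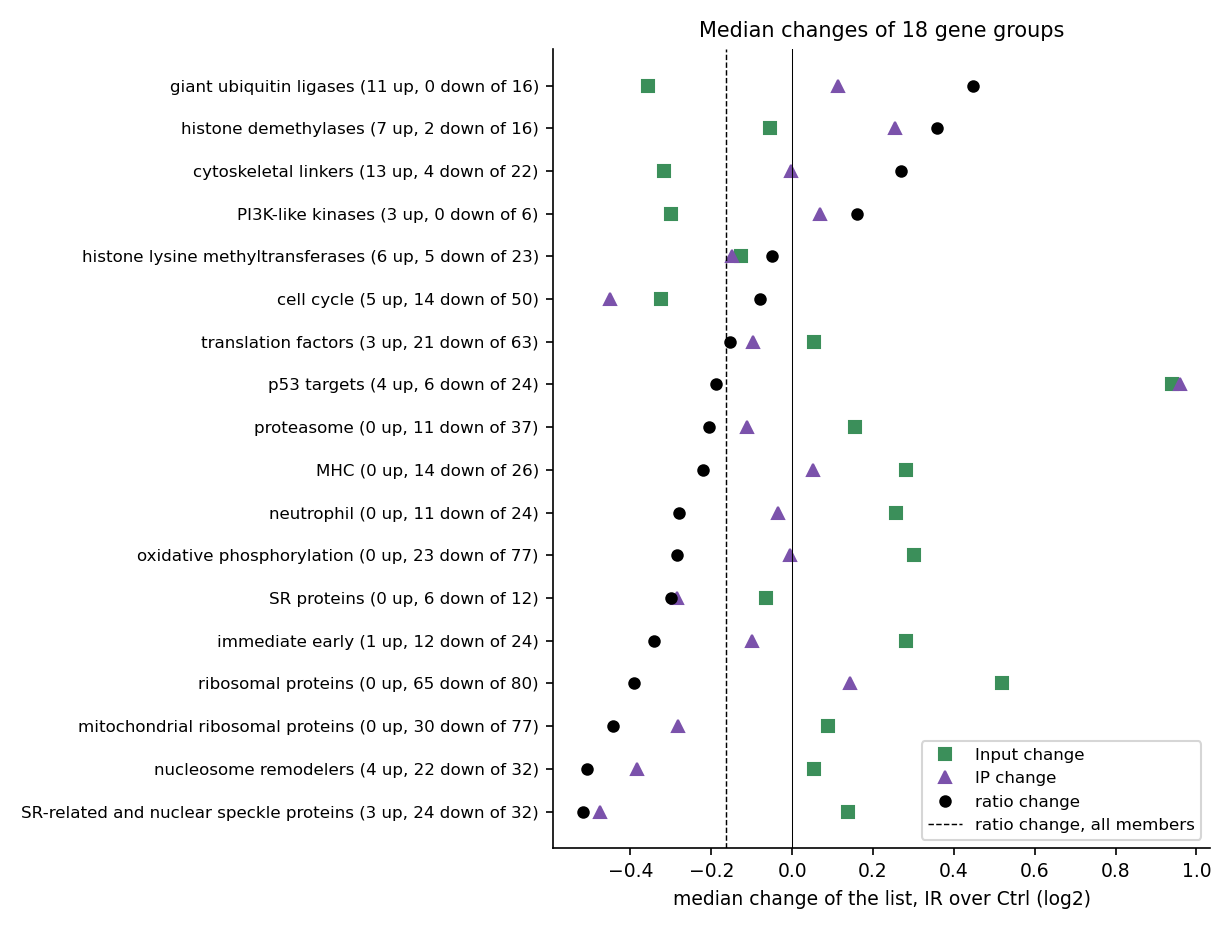
Median log2 change (IR over Ctrl) of the Input, the IP and the ratio for 18 gene groups, with the number called higher and lower beside each name and a dashed line at the median ratio change of all members (-0.16). Giant ubiquitin ligases lie highest at 0.45 with a median Input change of -0.36, and speckle proteins lowest at -0.52 with a median IP change of -0.48.

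Members with the most purine-rich coding stretches had mostly lower calls, inside these lists and outside them. This grouping was chosen after the falling genes had been seen. For each of 9786 members with a coding sequence, the 120-base window with the highest share of A and G was taken. Of 312 members whose window reached 80% or more, 220 (70.5%) were lower and 16 (5.13%) higher, with median changes of -0.58 in the ratio, -0.42 in the IP and 0.14 in the Input. Of 555 members at 75 to 80%, 233 (42.0%) were lower and 80 (14.4%) higher, both above the shares of all members. In the 4 classes under 75% the share of lower calls lay between 19.9% and 29.8%. Higher calls took 2.92% of the class under 60%, then 5.15%, 10.5% and 16.5% of the classes up to 75%, along which the median transcript length went from 2135 to 3974 bases. Over all members Spearman's rho of the purine share with the ratio change was 0.081, a description across genes.

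The members at 80% or more had a high ratio in Ctrl and a lower one in IR. Their median log2 ratio was 1.05 ± 0.11 (SD, 3 pools) in Ctrl and 0.47 ± 0.08 in IR, with no overlap between pools. The Ctrl ratio and the ratio change share the Ctrl libraries. At 75% or more, 867 members had 52.2% lower calls, a share that was 45.3% to 51.9% with 1 library left out and 32.1% with libraries divided by their totals only, a scaling that left 7.40% of all members lower. A window of 60 bases gave 50.9% and one of 240 bases 51.6% among as many members.

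The same grouping was counted within the length classes. Members at 75% or more were lower in 10 of 11 cases under 1 kb, 67 of 98 at 1 to 2 kb, 172 of 292 at 2 to 4 kb, 157 of 351 at 4 to 8 kb and 47 of 115 at 8 kb or more, where members under 75% were lower in 40.0%, 32.0%, 24.4%, 14.5% and 9.62%. Of the 867, 78 were splicing or chromatin genes, of which 55 were lower, and 699 were in none of the 30 lists, of which 353 (50.5%) were lower and 70 higher. Among the nucleosome remodelers 24 of 32 had such a window and 18 of these were lower, and among the speckle proteins 25 of 32 had one and 21 were lower. Shares among genes named above reached 94.2% in Zc3h13, 93.3% in Luc7l3 and Upf2, and 90.8% in Rbm25.

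**Figure D5:**
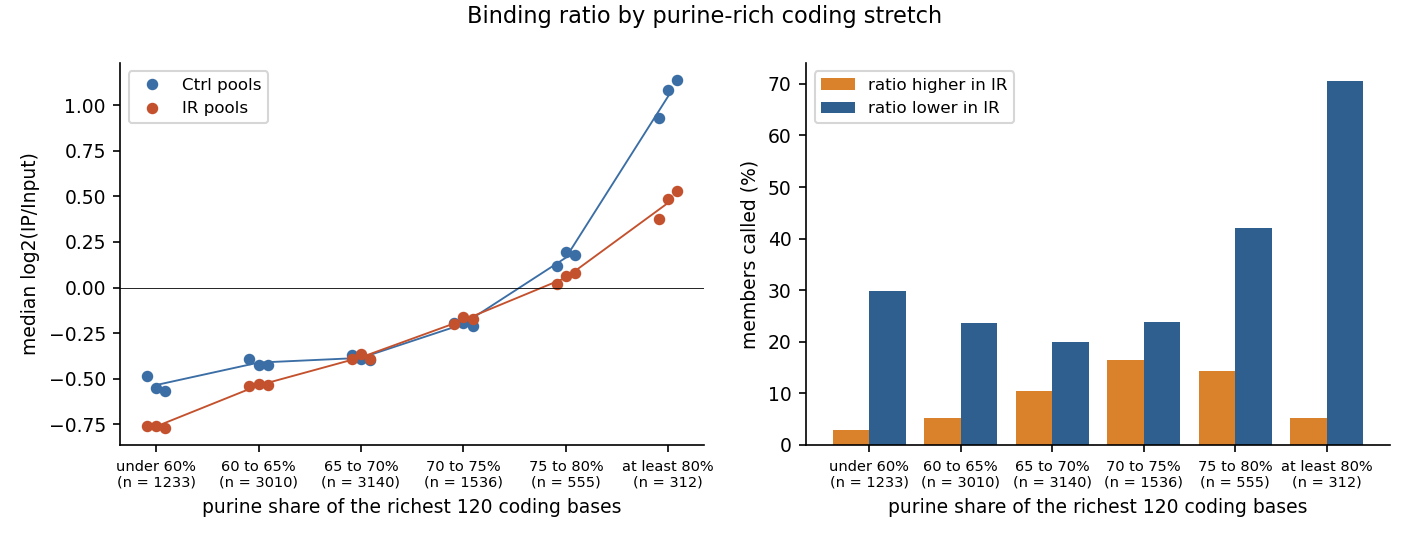
Members grouped by the purine share of their richest 120 coding bases, with the percent called higher and lower in each class and the median log2 IP over Input of each pool. Lower calls reach 70.5% in the class at 80% or more, where the pools fall from 1.05 in Ctrl to 0.47 in IR.

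The other sequence features differed as follows. The 3′ untranslated region had a median of 2263 bases in rises and 854 in falls (1172 in all members), the coding sequence 2742 and 1209 bases (1365), and exons numbered 17 and 8 (9). The GC content of the transcript was 47.6% in rises and 51.7% in falls, against 50.0% in all members. The motif GGACT, a sequence in which m6A is often placed, occurred 0.939 times per kb in rises, 1.10 in falls and 1.05 in all members, and AUUUA, the core of AU-rich decay elements, 1.14, 0.613 and 0.809 times per kb. Both motifs were counted on the transcript strand, and a match in sequence is not a measured site. Of the members, 6103 have no exon that overlaps another gene, and 564 of these (9.24%) were higher and 1535 (25.2%) lower, shares close to those of all members.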

How the data were processed

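The deposited tables hold HTSeq counts per gene, not normalized, for 12 RIP-seq libraries in 4 groups of 3. Per the labels and the study's methods, trimming by the authors used Trimmomatic 0.39, alignment to mm10 used HISAT and the GENCODE M19 annotation, and their own tests used DESeq2. The stranded setting of the alignment is stated, but the strand option of HTSeq and the handling of duplicate reads are not given in the sources used here, so reads of overlapping genes on opposite strands cannot be assigned with certainty. Symbols, coordinates, transcript lengths and sequences came from GENCODE M21 of the same build, which matched 99.9% of identifiers. The 5 summary lines of each table stayed out of library sizes and tests.

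Counts were normalized with TMM and fitted with the quasi-likelihood model of edgeR 4.0.16 (R 4.3.3) on genes that reached 10 counts in 3 or more libraries. The interaction, the IP change and the Input change came from 1 fit of 12 libraries, with Benjamini-Hochberg adjustment over all tested genes and a threshold of 0.05. SE is the log2 change divided by the root of its F value. Levels are CPM on the TMM scale, and ratios per pool used the IP and Input of the same replicate number and a prior count of 2. Replicates are pools of 5 mice, which the methods call technical replicates, and p-values measure the spread between these samples. No 2 libraries agreed within counting noise. The model was checked on drawn counts for 19620 genes, of which 200 were changed.

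The members and the 30 gene lists were chosen with earlier results of these data known. Named genes were the 4 markers and Ythdf2, the 12 largest rises and falls and the 3 largest of each part of the split (adjusted p under 0.05, a mean of at least 100 counts, IR and Ctrl pools apart), and in each list up to 4 called genes and the 2 with the highest Input. Some genes that this rule names are not reported here. Alternatives were other scalings and filters, DESeq2 1.42.0, a replicate block, subtraction of an exon-length background, single fits of 6 libraries, other thresholds of expression and length, and leaving out each library. Per the methods, though not the labels, the Input and IP of a pool came from the same lysate, and the replicate numbers were taken to name the pool, although the deviations of same-numbered libraries from their group means did not correlate (r from -0.019 to 0.015).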

Additional observations from a re-analysis of the deposited data

Results flagged for a closer look

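Of the members, 97 had an IP below the Input in Ctrl and above it in IR, each difference and the interaction passing edgeR's quasi-likelihood test. Among the genes named above, the largest of these changes were those of Zfp971 (log2 ratio change 3.39), Abca13 (2.19), Vav3 (1.88) and Pstpip2 (1.81), and Ankrd52 (1.77), Dst (1.56), Abca1 (1.55) and further named genes also passed from below to above. In the opposite direction, 135 members had an IP above the Input in Ctrl and below it in IR. Among the largest of these changes were those of Wdr89 (-1.23), the kinase Ptk6 (-1.19) and 2700062C07Rik (-1.06), all chosen after their values were seen.

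Outside the counts on genes, reads on no annotated gene made up 51.4% of the uniquely aligned reads in the IR IP, above the Ctrl IP and both Inputs. Coding genes with no count in any Input, 4539 in number, held 1.11 ± 0.296 counts per kb of exon (SD, n = 3) in the IR IP and 0.258 ± 0.0586 in the Ctrl IP. An even background of that density made up a median of 0.115% to 0.157% of a member's counts in the Ctrl IP and 0.463% to 0.723% in the IR IP. The median over these genes was 0 counts per kb in every IP library, so the counts were not spread evenly over them. Groups of 3 libraries were not tested for a library that stands apart.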

How the results depend on the processing

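The ratio change of Kmt2d, Ankrd12, Luc7l3 and Ppig kept its direction and its call in each of the alternatives run, as did 115 of the 191 named genes. Over the named genes and 20 settings, 3817 values were computed, of which 3546 kept direction and call, 200 lost the call, 34 gained it, 23 had no call and moved by more than their error, and 14 changed sign. Scaling changed most. With libraries divided by their totals only, 2290 members were higher (IP only 1046, Input only 517, both 604, neither 123) and 724 lower (307, 228, 150 and 39), purine-rich members were lower in 32.1%, and the sign changed for Psma7 (0.020), Eef1b2 (0.030), Sars (0.0020), Ccl6 (0.15), H2afx (0.029), Mycbp2 (0.23), Zfp106 (0.087), Btg1 (0.068), Ltf (0.012), Pkm (0.22), Gpi1 (0.029), Csf2rb (0.024) and Fth1 (0.29). TMM from the members alone gave 1675 lower members, 508 rises through the IP only and 318 through both, 661 falls through the IP only and 365 through both, and Fth1 at 0.10. The cause was not tested beyond the shift of all genes that these scalings make. A filter of 10 counts in every library gave 1339 higher members (IP only 501, both 335), and the cause was not tested. Single fits of 6 libraries gave 88 rises through the IP only, 551 through the Input only and 16 through neither, and 242 falls through neither. Changes of at least 2-fold numbered 171 higher and 116 lower, and members without exon overlap gave 564 and 1535. A floor of 1 CPM gave 924 higher and 2570 lower members, and a floor of 20 CPM 689 and 2269. DESeq2 gave 1180 and 2301, no filter 865 and 2821, and subtraction of an exon-length background 913 and 2297.

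Class differences in the ratio by length, from the shortest to the longest class, were -0.28, -0.23, -0.086, 0.14 and 0.39 with DESeq2 size factors, -0.023, 0.027, 0.17, 0.39 and 0.64 with libraries divided by their totals, -0.21, -0.16, -0.023, 0.20 and 0.46 with TMM from the members, and -0.39, -0.30, -0.17, 0.055 and 0.29 for members of at least 20 CPM. With the background subtracted the 4 longer classes were at -0.26, -0.12, 0.10 and 0.35. With length taken as the union of exons the classes under 1 kb, 2 to 4, 4 to 8 and 8 kb or more were at -0.37, -0.23, -0.051 and 0.15, and the longest exceeded the shortest by 0.52.

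With 1 library left out, higher members numbered 711 to 1240 (IP only 238 to 370, Input only 252 to 549, both 129 to 258, neither 60 to 88) and lower members 1856 to 2662 (968 to 1273, 437 to 821, 317 to 619 and 89 to 133), and the class differences ran from -0.35 to -0.26, -0.29 to -0.21, -0.15 to -0.078, 0.073 to 0.15 and 0.32 to 0.40. Pairing the IP and Input of a pool by a replicate block gave 813 higher and 2458 lower members and 50.9% lower among purine-rich ones. Without that pairing, the 1 to 2 kb class was at -0.30. The split could not be computed with the block, which takes up the Input change. A model check on drawn counts found 47% of changes of 1.5-fold and 76% of changes of 2-fold, so changes of either size can be missed. The changed genes were drawn from coding genes of at least 5 CPM, and recovery was not split by level. Only 200 of 19620 genes were changed there, whereas 6.28% of tested genes were called higher and 13.9% lower in the data. These rates may therefore not carry over.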
